A study of Homo sapiens with 9 samples.

Results

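SR proteins and hnRNPs are the RNA-binding proteins that read splicing signals in nascent transcripts. Their mRNA levels were followed here in U2-OS cells, an established human osteosarcoma line, with and without extra NCBP2, a nuclear protein that binds the RNA cap. Members were the protein-coding genes whose GENCODE symbol is SRSF followed by a number, TRA2A or TRA2B, or HNRNP followed by letters or numbers. This gave 40 of the 60609 gene identifiers in the deposited tables, 14 SR protein genes and 26 hnRNP genes. The filter on low counts kept 36 of them, all 14 SR protein genes and 22 hnRNP genes. The other 4 were the hnRNP C-like copies HNRNPCL1, HNRNPCL2, HNRNPCL3 and HNRNPCL4, with 2, 16, 1 and 0 reads over all 9 libraries. RNA was sequenced after ribosomal RNA removal from 6 libraries of NCBP2-overexpressing cells and 3 libraries of empty-vector cells. The NCBP2 libraries came from only 2 clones, A1 and A4, with replicates A, B and C from each. The vector libraries A, B and C came from 3 separate clones obtained likewise with an empty vector. The promoter that drives NCBP2 is not given in the sources used here. No label says that the 3 libraries of a clone were separate cultures, so p-values measure only the spread between these libraries. The question was whether the genes for these splicing regulators differ in RNA level when NCBP2 is raised.

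SR proteins carry an RNA-recognition motif and a tail rich in arginine and serine. They bind exonic enhancers and recruit the spliceosome, while many hnRNPs bind silencers and pack nascent RNA, so the balance of both families sets exon choice at many genes. The nuclear cap-binding complex, NCBP1 with NCBP2, sits on the cap of the same nascent RNAs and helps splicing of the cap-proximal intron and export. Many SR protein and hnRNP genes limit their own mRNA by splicing in a poison exon that sends the transcript to nonsense-mediated decay.

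Several of these genes have near-identical copies, which decides how well they can be counted, because only reads with a single alignment entered the counts. HNRNPA1, on chromosome 12, and its protein-coding copies HNRNPA1L2, on chromosome 13, and HNRNPA1L3, on chromosome 16, are the closest set that passed the filter on low counts. The stretch below was chosen because, of all 60-base stretches of the HNRNPA1 coding sequence without a gap, it is the one where both copies together differ most from HNRNPA1. It spans coding bases 589 to 648 of HNRNPA1 and lies in the exons that encode the glycine-rich region. Sequences are from the GRCh38 genome with GENCODE 44 coding exons, 5′ to 3′ on the gene's strand, and capitals mark bases that differ from HNRNPA1.
HNRNPA1: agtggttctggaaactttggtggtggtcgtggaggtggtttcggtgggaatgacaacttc
HNRNPA1L2: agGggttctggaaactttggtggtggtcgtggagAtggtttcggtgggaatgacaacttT
HNRNPA1L3: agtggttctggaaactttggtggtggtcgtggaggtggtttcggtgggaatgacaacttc
HNRNPA1L2 differed at 3 bases here and HNRNPA1L3 at 0, so a short read from this stretch of HNRNPA1 has the same letters as HNRNPA1L3. Over 960 aligned coding bases HNRNPA1 shared 98.4% with HNRNPA1L2 and 99.4% with HNRNPA1L3. Of all 50-base windows of its coding sequence, 83.2% of HNRNPA1, 89.8% of HNRNPA3, 58.2% of HNRNPC, 28.6% of HNRNPK and 22.2% of HNRNPL were also found in a GENCODE transcript from another place in the genome. Among SR proteins the highest shares were 27.9% in SRSF6 and 11.4% in SRSF8. For 18 of the 40 members, 9 of them SR protein genes, no such window was shared. GENCODE lists 134 pseudogenes named after 20 members, 98 of which had at least 1 read. Reads on the 74 copies of HNRNPA1 amounted to 1.53% of its own count, and reads on the 16 copies of HNRNPA3 to 0.567%. Counts of HNRNPA1, HNRNPA1L2, HNRNPA1L3, HNRNPA3 and HNRNPC therefore come only from reads that aligned to a single place. How many of their reads were set aside was not tested. The windows cover coding sequence only, and a read longer than 50 bases can be unique where a window is shared.

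NCBP2 itself stood at 299, 348 and 305 CPM (counts relative to a scaled library total) for clone A1, 796, 1035 and 456 for clone A4 and 98.4, 90.6 and 98.3 for vector, always in the order A, B, C. Every NCBP2 library was above every vector library. Libraries held 80341579 to 111784333 reads, of which 29234022 to 50554080 were counted on the strand of a gene. Clone A1 replicate A stood apart, with correlations of log2 CPM of 0.899 to 0.928 to the other libraries against 0.947 to 0.970 in the 28 pairs without it. Of the markers listed for the line, the osteoblast-lineage genes RUNX2, COL1A1 and SPARC and the broader mesenchymal genes VIM and CDH2 were detected in every library. ALPL, of the same list, was low with 957 reads in all, and COL1A2 had 106. Telomerase (TERT), which U2-OS lacks, had 0. Of markers of other cell types, the T-cell gene CD3E had 0 reads, the liver gene ALB 8 and the endothelial gene PECAM1 10. Low levels of the epithelial genes EPCAM (1226 reads) and CDH1 (839 reads), the leukocyte gene PTPRC (324 reads) and the endothelial gene CDH5 (155 reads) were counted. The epithelial pair differed in sign in the NCBP2 arm, with log2 fold changes of 0.39 for EPCAM (SE 0.323, adjusted p = 0.99933 by edgeR) and −0.98 for CDH1 (SE 0.383, adjusted p = 0.746 by edgeR), and CDH1 was lower in every NCBP2 library than in every vector library.

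The members were abundant messages in these cells. Together they made up 1.17% ± 0.054 of gene counts in clone A1, 1.06% ± 0.047 in clone A4 and 1.07% ± 0.059 in the vector clones (SD, n = 3 libraries each). To compare genes, levels were taken per kilobase of merged exon in the vector libraries. On that scale HNRNPAB led with 144.7 ± 9.13 CPM per kilobase (SD, n = 3), followed by HNRNPK with 141.9 ± 8.17, SRSF2 with 118.0 ± 9.35, HNRNPC with 82.2 ± 5.78 and HNRNPA2B1 with 81.5 ± 16.5. HNRNPAB is a CArG-box and RNA-binding relative of hnRNP D, HNRNPK binds C-rich RNA, SRSF2 is a nuclear-retained SR protein that binds exonic enhancers, and HNRNPC and HNRNPA2B1 belong to the core particles on nascent RNA. HNRNPAB and HNRNPK overlapped in their 3 vector values, as did HNRNPC and HNRNPA2B1, whereas SRSF2 lay between these pairs without overlap. At the low end SRSF12 stood at 0.118 ± 0.0880 CPM per kilobase, and HNRNPCL2 at 0.0619 ± 0.107. HNRNPCL1, HNRNPCL3 and HNRNPCL4 had 0 reads in each vector library, which allows up to 3 reads there by counting error alone. Of the 35 neighbouring pairs in the order of tested members, 29 overlapped in their vector ranges. The 6 gaps lay between HNRNPK and SRSF2, SRSF2 and HNRNPC, SRSF4 and HNRNPUL2, HNRNPUL2 and HNRNPA1L3, HNRNPA1L3 and HNRNPA1L2, and HNRNPA1L2 and SRSF12. The order depends on the length used. Per kilobase of the canonical transcript it ran HNRNPA2B1, HNRNPK, SRSF5, HNRNPH1, HNRNPC, SRSF2 and then HNRNPAB.

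**Figure D1:**
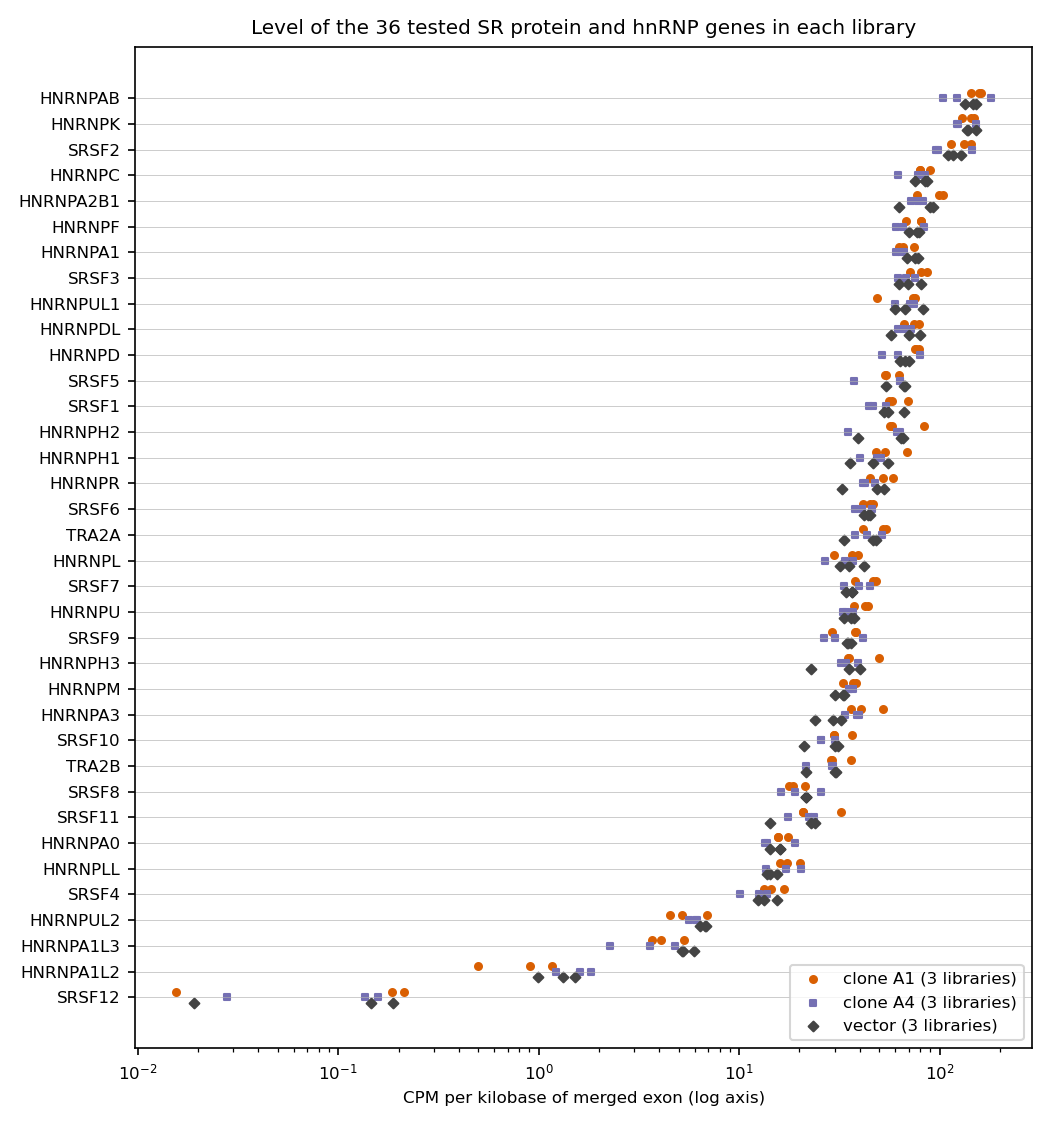
Level of each of the 36 tested members in each of the 9 libraries, in CPM per kilobase of merged exon on a log axis, ordered by the mean of the 3 vector libraries. Points are libraries; most genes lie close together while HNRNPUL2, HNRNPA1L3, HNRNPA1L2 and SRSF12 form a tail of low levels.

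No member passed the threshold of an adjusted p under 0.05 when the 6 NCBP2 libraries were compared with the 3 vector libraries (edgeR quasi-likelihood test, Benjamini-Hochberg over 21682 genes). The background was low, since 4 of 21682 genes (0.0184%) passed. The count was also 0 of 36 in clone A1 against vector, where 0.0646% of genes passed, in clone A4 against vector, where 0.115% passed, and in clone A4 against clone A1, where 0.161% passed. At an unadjusted p under 0.05, 1 of 36 members was below the threshold in each of the first 3 comparisons, HNRNPA3 each time, and 0 in the last. The shares of all genes there were 5.71%, 7.51%, 5.25% and 6.63%, so the members' 2.78% or 0% was under the background. The comparisons of the NCBP2 arm and of each clone use the same 3 vector libraries, so their values are given side by side and do not count as separate evidence.

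Intervals were narrow for most members, as measured by the spread between these libraries. The fit takes the 6 NCBP2 libraries as independent although they come from only 2 clones. These intervals therefore do not bound an effect of NCBP2 across clones. In the NCBP2 arm the 95% interval of the fold change lay within 2-fold in either direction for 34 of 36 members and within 1.5-fold for 28. In clone A1 these counts were 34 and 20, and in clone A4 33 and 28. Intervals wider than 2-fold belonged to SRSF12, HNRNPA1L2 and HNRNPA1L3, the tested members with the fewest reads (212, 646 and 3318 over all libraries). For SRSF12 in the NCBP2 arm it ran from −1.82 to 1.94 on the log2 scale. The fitted log2 fold changes in the NCBP2 arm ran from −0.46 for HNRNPA1L3 to 0.49 for HNRNPA3, with a median of 0.04 over the 36 members and 0.02 over all genes tested. Leaving out 1 library moved the members' median between −0.02 (vector replicate B) and 0.08 (clone A4 replicate C), and it was also under 0 when replicate C of clone A1 or replicate B of clone A4 was dropped. Of the members 21 had a positive value and 15 a negative one (23 without vector replicate B), and 53.0% of all genes were positive. The clones leaned to opposite sides. In clone A1 26 members were positive (48.4% of all genes), with a median of 0.13, and in clone A4 26 were negative (46.4% of all genes), with a median of −0.06, or 16 without clone A4 replicate C. The median in clone A1 was 0.06 when its replicate C was dropped and 0.05 without vector replicate B. In clone A4 it was 0.00 without its replicate C, −0.18 without its replicate B and −0.10 without vector replicate B. On simulated counts made from these libraries, the test found 6% of genes changed by 1.5-fold, 62% of those changed by 2-fold and 100% of those changed by 4-fold in the arm comparison (20846 genes tested), and 0%, 32% and 100% in clone A1 against vector (20788 genes). Only better expressed genes were changed there, and libraries were drawn independently, with no effect of clone or base composition. These shares do not cover SRSF12, HNRNPA1L2 and HNRNPA1L3, whose levels are lower.

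**Figure D2:**
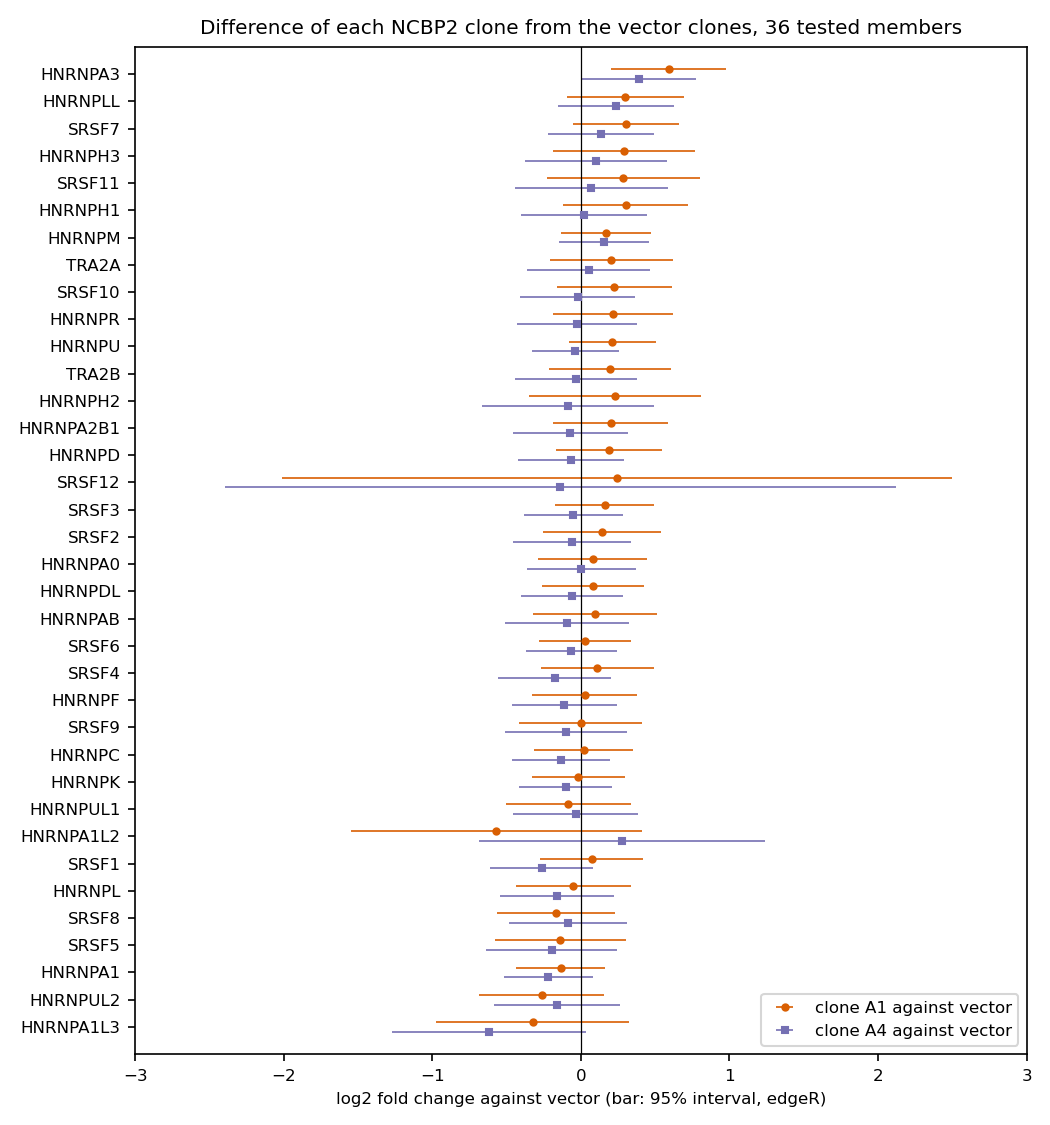
Log2 fold change of each tested member in clone A1 (circles) and clone A4 (squares) against the same 3 vector libraries, with 95% intervals computed from the edgeR fit, ordered by the value in the NCBP2 arm. HNRNPA3 is the gene whose interval lies above 0 in both clones, and SRSF12 has the widest interval.

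HNRNPA3, which encodes a nuclear protein of the A/B class that binds RNA through a pair of RNA-recognition motifs, had the highest log2 fold change of the members. It lies at chr2:177212694-177223959 on the plus strand by GENCODE 44 on GRCh38, and the deposited tables list it as ENSG00000170144.20. Its level was 341, 238 and 266 CPM for clone A1, 260.0, 253 and 219.8 for clone A4 and 192, 157 and 211 for vector. All 6 NCBP2 libraries were above all 3 vector libraries, with 1.47% of all genes separated upwards in this comparison. In the NCBP2 arm HNRNPA3 differed by a log2 fold change of 0.49 (SE 0.161, 95% interval 0.15 to 0.84, adjusted p = 0.592 by edgeR). It was 0.59 in clone A1 (SE 0.178, adjusted p = 0.356) and 0.39 in clone A4 (SE 0.178, adjusted p = 0.941), by the same test. A two-sided exact permutation test over the 9 libraries gave p = 0.0119, the smallest that 84 splits allow, and this test treats the libraries of a clone as independent. With 3 libraries against 3 the exact p was 0.1 in each clone, the smallest possible there. HNRNPA3 was chosen for this test by its unadjusted p in the same data. Its groups were already known not to overlap, which fixes these exact p-values in advance, so they are not separate evidence. When counts were summed per clone, leaving 2 NCBP2 clones against 3 vector clones, its difference was 0.47 on the log2 scale (SE 0.183, adjusted p = 0.99999 by edgeR). Without clone A1 replicate A, the highest library, it was 0.40 in the NCBP2 arm, and without vector replicate B, the lowest, 0.38.

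The genes around HNRNPA3 stood as far above vector as it did. The 40 nearest tested genes, 20 on each side, lie between positions 174798809 and 178830802 of chromosome 2. They had a median log2 fold change of 0.47 in the NCBP2 arm, and 35 of the 40 were positive. HNRNPA3 exceeded that median by 0.02. In clone A1 its value was 0.19 above its neighbours' median of 0.40, and in clone A4 it was 0.06 below their median of 0.45. Among these neighbours, NFE2L2, a regulator of the antioxidant response that overlaps HNRNPA3 on the opposite strand, had 0.47, the stress-responsive factor ATF2 0.62 and the limb patterning gene HOXD10 0.71 in the NCBP2 arm. Reads on the strand opposite to HNRNPA3 were 0.291% of the reads at the gene. Chromosome 2 as a whole had a median of 0.24 over its 1503 tested genes for the NCBP2 arm, of 0.22 for clone A1 and of 0.23 for clone A4, the highest of the autosomes in each comparison. No copy number was measured in these files, and its part in these values was not tested.

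**Figure D3:**
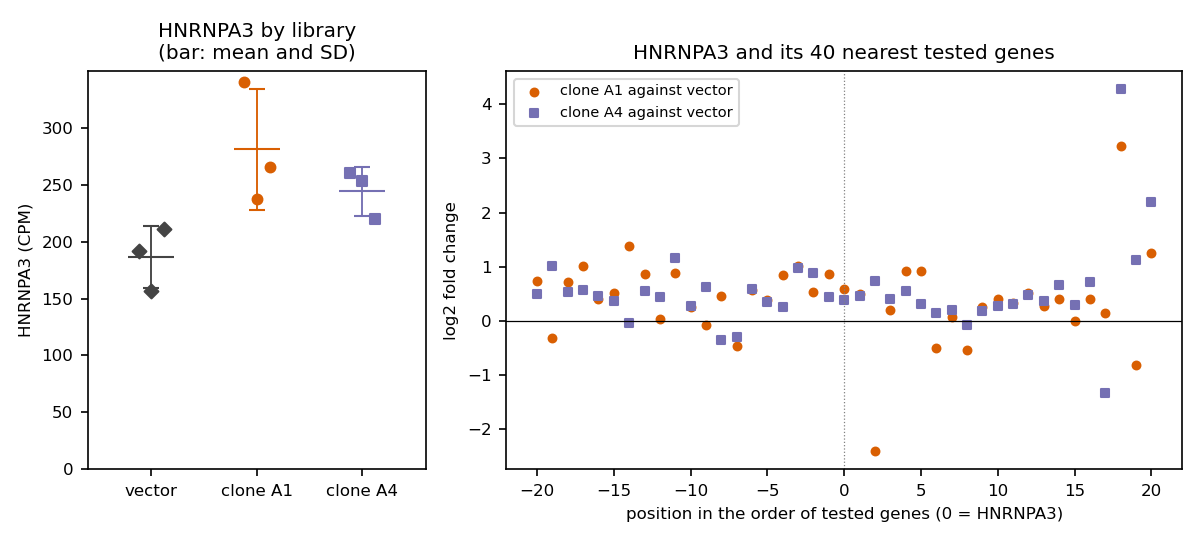
Left, HNRNPA3 in CPM in each library with the group's mean and SD (n = 3). Right, log2 fold change of HNRNPA3 (position 0) and of the 40 nearest tested genes on chromosome 2 in gene order, in each clone against vector; most points on both sides lie above 0.

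The other members of chromosome 2 showed the same local pattern. SRSF7, an SR protein that also links splicing to mRNA export, and HNRNPLL, a regulator of CD45 splicing in lymphocytes, are neighbours on the short arm, at chr2:38743599-38751494 and chr2:38561969-38603586, and their windows share most genes. SRSF7 was at 187, 153 and 195 CPM for clone A1, 161, 182 and 135 for clone A4 and 148, 139 and 148 for vector. HNRNPLL was at 119.8, 103 and 94.4 CPM for clone A1, 102, 121 and 80.6 for clone A4 and 81.9, 84.2 and 91.9 for vector. For both genes all clone A1 libraries were above all vector libraries, while clone A4 overlapped vector. The log2 fold change of SRSF7 in clone A1 was 0.30 (SE 0.164, adjusted p = 0.723 by edgeR), beside a median of 0.42 for its neighbours, of which 33 of 40 were positive. For HNRNPLL it was 0.30 (SE 0.181, adjusted p = 0.760 by edgeR), beside 0.44 for its neighbours. In clone A4 the values were 0.14 for SRSF7 and 0.24 for HNRNPLL, beside 0.25 and 0.28. In the NCBP2 arm these 3 chromosome 2 genes were the 3 highest of the 36 members. That ranking did not hold in either clone alone, although HNRNPA3 was the highest member in both. In clone A1 HNRNPH1, from another chromosome, also had 0.30 and lay between SRSF7 and HNRNPLL. In clone A4 HNRNPA1L2 (0.28, on few reads) and HNRNPM (0.16), from other chromosomes too, were above SRSF7, and HNRNPA1L2 was also above HNRNPLL. In the NCBP2 arm no member besides the chromosome 2 genes had a neighbours' median over 0.3, a level exceeded by 4.31% of all genes with a full window.

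Members with low neighbours were found too. SRSF5, an SR protein first described as an insulin-induced gene, lies on chromosome 14. It was at 337, 287 and 288 CPM for clone A1, 338, 338 and 200.2 for clone A4 and 356, 289 and 360.4 for vector, and its neighbours had a median of −0.27 in the NCBP2 arm beside its own −0.17. SRSF1, the founding SR protein and a splicing oncoprotein on chromosome 17, had neighbours at −0.30 and an own value of −0.09. The clones differed in sign for SRSF1, with 0.07 in clone A1 and −0.26 in clone A4. Over the 36 members, the correlation between a member's log2 fold change and that of its neighbours was Pearson's r = 0.57 (Spearman's rho 0.39) in the NCBP2 arm, r = 0.39 (rho 0.42) in clone A1 and r = 0.55 (rho 0.33) in clone A4. Over 20630 tested genes with a full window these were r = 0.22, 0.20 and 0.21. In clone A4 against clone A1, where the vector libraries drop out, r was 0.05 (rho 0.04) over the members and 0.17 (rho 0.24) over all genes. All these points share the same libraries, and windows of adjacent members share genes, so the values are descriptions.

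**Figure D4:**
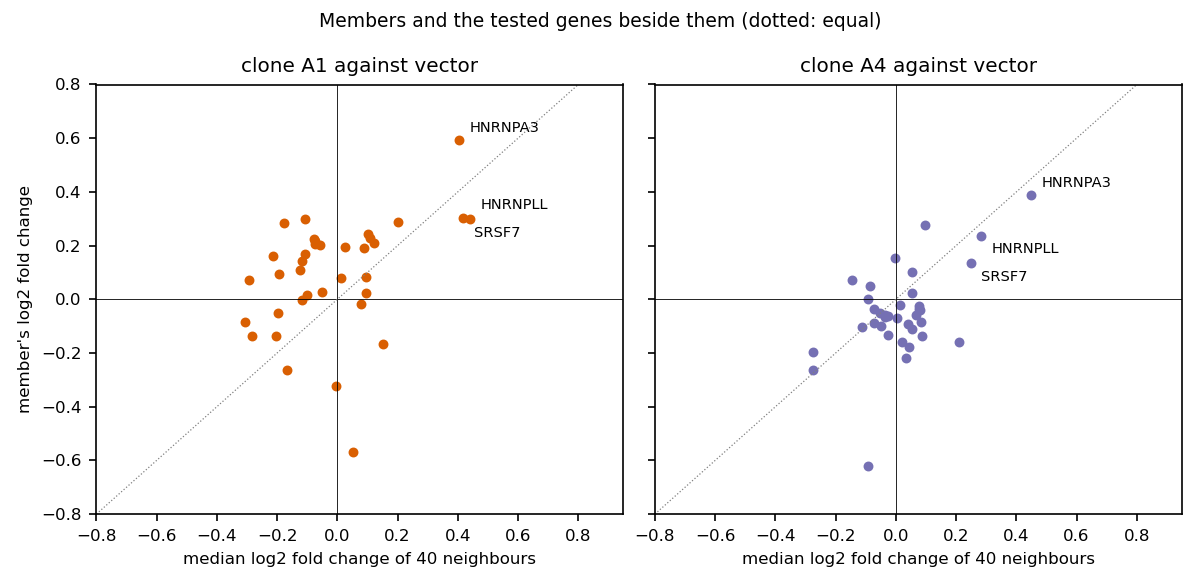
Each tested member's log2 fold change against the median of its 40 nearest tested genes, against vector, with a panel for each clone; the dotted line marks equal values. The chromosome 2 members HNRNPA3, HNRNPLL and SRSF7 sit at the upper right in both panels.

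Among all 14 SR proteins, the fitted values in the NCBP2 arm ran from −0.17 for SRSF5 to 0.22 for SRSF7, 8 positive and 6 negative, with 0 of 14 below an unadjusted p of 0.05. SRSF2, which recruits spliceosome components to exonic enhancers, was at 341, 394 and 429 CPM for clone A1, 293, 432 and 286 for clone A4 and 326, 381 and 346 for vector, and the groups overlapped. SRSF3, a small SR protein that also acts in export and 3′ end choice, was at 575, 504 and 615 CPM for clone A1, 484, 538 and 441 for clone A4 and 498, 446 and 573 for vector, with no separation either. TRA2B, which activates exons with GAA-rich enhancers, was at 474, 375 and 379 CPM for clone A1, 386, 381 and 282 for clone A4 and 394, 281 and 399.9 for vector. Its lowest values came from 1 vector library and 1 clone A4 library that were nearly equal. TRA2A, its paralog, had a log2 fold change of 0.13 in the NCBP2 arm beside 0.08 for TRA2B. SRSF8, a retrogene relative of SRSF2, was at 91.3, 80.0 and 76.7 CPM for clone A1, 82.3, 110.1 and 70.0 for clone A4 and 92.6, 93.2 and 92.9 for vector. Its 3 vector values were almost the same, clone A1 lay below all of them, and clone A4 spread to both sides. The log2 fold change of SRSF8 in clone A1 was −0.17 (SE 0.183, adjusted p = 0.868 by edgeR). SRSF12, an SR protein described as a splicing repressor, had 212 reads over all libraries, and 74.6% of stranded reads at the gene lay on the opposite strand.

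The hnRNPs of the A/B and D class had the largest spread of values. HNRNPA1, which binds UAGG-type silencers and shuttles to the cytoplasm, was at 419, 440.1 and 497 CPM for clone A1, 405, 430.0 and 444 for clone A4 and 522, 462 and 505 for vector. All clone A4 libraries were below all vector libraries, while clone A1 overlapped them, and the log2 fold change in clone A4 was −0.22 (SE 0.137, adjusted p = 0.9997 by edgeR). HNRNPA1L3, its near-identical copy, was at 7.11, 7.82 and 10.3 CPM for clone A1, 4.38, 6.92 and 9.25 for clone A4 and 9.96, 11.5 and 10.1 for vector. Here too clone A4 was below vector without overlap, with a log2 fold change of −0.62 (SE 0.2998, 95% interval −1.27 to 0.03, adjusted p = 0.984 by edgeR). Whether the counts of such near-identical genes are independent was not tested. The pseudogene copies of HNRNPA1 did not share this direction. Their summed level was 9.29, 7.56 and 5.78 CPM for clone A1, 9.50, 6.92 and 9.81 for clone A4 and 4.64, 3.61 and 7.34 for vector. HNRNPA1L2 was at 0.669, 1.56 and 1.22 CPM for clone A1, 1.64, 2.16 and 2.44 for clone A4 and 2.04, 1.33 and 1.78 for vector, and clone A4 lay above clone A1. HNRNPA2B1, an A/B protein that also reads methylated adenosine marks, was the member with the most reads and was at 1317, 979 and 1248 CPM for clone A1, 1044, 982 and 909 for clone A4 and 1129.6, 788 and 1166 for vector, with overlap between all groups. HNRNPD, which binds AU-rich elements in unstable mRNAs, was at 527, 538 and 551 CPM for clone A1, 433, 557 and 362 for clone A4 and 496, 474 and 447 for vector, so that clone A1 stood above vector (log2 fold change 0.19, SE 0.164, adjusted p = 0.832 by edgeR) and clone A4 on both sides.

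None of the remaining hnRNPs passed the test in any comparison. In the F/H class, whose proteins bind G-runs, HNRNPH1 was at 649, 457 and 506 CPM for clone A1, 486, 463 and 380.1 for clone A4 and 442, 339.8 and 527 for vector and HNRNPF at 265, 222 and 266 CPM for clone A1, 215, 273 and 198 for clone A4 and 257, 252 and 232 for vector, both with overlapping groups. HNRNPM, which competes with other regulators at GU-rich sites, was at 186, 208 and 215 CPM for clone A1, 197, 197 and 208 for clone A4 and 188, 185 and 168 for vector. All clone A4 libraries were above vector, by 0.16 on the log2 scale (SE 0.140, adjusted p = 0.9997 by edgeR). HNRNPU, a scaffold protein that binds chromatin and RNA, was at 987, 839 and 959 CPM for clone A1, 744, 769 and 829 for clone A4 and 818, 747 and 842 for vector. HNRNPUL2, a relative of HNRNPU linked to DNA repair, was at 24.5, 28.1 and 37.5 CPM for clone A1, 33.3, 33.0 and 30.5 for clone A4 and 36.6, 34.6 and 37.0 for vector, and clone A4 lay below vector by 0.16 (SE 0.194, adjusted p = 0.9997 by edgeR). HNRNPK was at 736, 818 and 844 CPM for clone A1, 693, 865 and 702 for clone A4 and 777, 862 and 787 for vector and HNRNPC at 584, 580.1 and 655 CPM for clone A1, 567, 619 and 453 for clone A4 and 618, 551 and 628 for vector, and no group stood apart for either. In all, groups did not overlap for 1 of 36 members in the NCBP2 arm (2.78%, against 3.74% of all genes), for 5 of 36 in clone A1 (13.9%, against 14.2%) and for 5 of 36 in clone A4 (13.9%, against 12.1%). In clone A1 4 members lay above vector and 1 below, where all genes gave 6.18% and 8.06%. In clone A4 2 lay above and 3 below, where all genes gave 6.2% and 5.86%. None of the totals exceeded the background by more than 1 gene. The separated members were named after their values were seen.

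Clone A4 had lower levels of most members than clone A1. Of the 36 members, 32 had a log2 fold change under 0 in clone A4 against clone A1, 13 of 14 SR proteins and 19 of 22 hnRNPs, while 46.8% of all genes tested and 47.8% of protein-coding genes were under 0. The exceptions were HNRNPA1L2, HNRNPUL2, SRSF8 and HNRNPUL1. The median was −0.17 over the members and 0.04 over all genes. The summed level was 12233, 11014 and 12207 CPM for clone A1, 10431, 11341 and 9540.2 for clone A4 and 11190, 9940 and 11447 for vector. Replicate B of clone A4 was above the lowest library of clone A1, so the sums overlapped, and the vector libraries spanned much of the range of both clones. The median SE of a single member was 0.18, about the size of the median difference, and none passed the test. SRSF1 had the lowest adjusted p. It was at 336, 322 and 400.2 CPM for clone A1, 256, 314 and 268 for clone A4 and 319, 304 and 384 for vector, with all of clone A4 below all of clone A1 and a log2 fold change of −0.34 (SE 0.160, 95% interval −0.68 to 0.01, adjusted p = 0.763 by edgeR). HNRNPU was the other member separated downwards, by −0.25 (SE 0.135, adjusted p = 0.790 by edgeR), and HNRNPA1L2 was separated upwards. These 3 of 36 members (8.33%) compare with 13.6% of all genes, of which 5.72% lay below and 7.92% above. In bulk RNA, a difference in the mix of cells and a difference within each cell cannot be told apart. CPM are relative to a scaled library total and do not measure RNA per cell.

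Single libraries and base composition moved with this difference between clones, and their part in it was not tested. Clone A4 replicate C was the lowest of all 9 libraries for 14 of 36 members (38.9%), against 12.1% of all genes tested, and clone A4 replicate A for 7 (19.4%, against 6.24%). Clone A1 replicate A was the highest for 12 members (33.3%, against 23.3% of all genes), and clone A1 replicate C for 7 (19.4%, against 6.42%). Clone A4 was not low throughout, since its replicate B was the highest library for 9 members (25%, against 11.6%). Vector replicate B was the lowest for 10 members (27.8%, against 16.6%). Without clone A4 replicate C, 30 of 36 members were under 0 with a median of −0.11, and without clone A1 replicate A again 30, with a median of −0.13. The members are poor in G and C, with a median of 42.0% in the canonical transcript (35.1% for HNRNPR to 54.9% for HNRNPUL1) against 48.0% for tested protein-coding genes. Over the members, the Spearman correlation of GC content with a library's deviation from the gene's median was −0.55 in clone A1 replicate A, 0.56 in vector replicate B and −0.06 in clone A4 replicate C. Over 21586 tested genes it was −0.44, 0.55 and 0.43. The 18 members with lower GC content had a median deviation of 0.27 on the log2 scale in clone A1 replicate A and −0.17 in vector replicate B, and the 18 with higher GC content −0.03 and 0.01. In clone A4 replicate C both sets were low, at −0.19 and −0.28. After a smooth curve of fold change on GC content over all genes was subtracted, an alternative added after the data were seen, 28 of 36 members were under 0 in clone A4 against clone A1, with a median of −0.10. In the NCBP2 arm the same step turned the members' median from 0.04 to −0.03 and left HNRNPA3 at 0.36, and in clone A1 it took the median from 0.13 to 0.05 and left HNRNPA3 at 0.38.

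**Figure D5:**
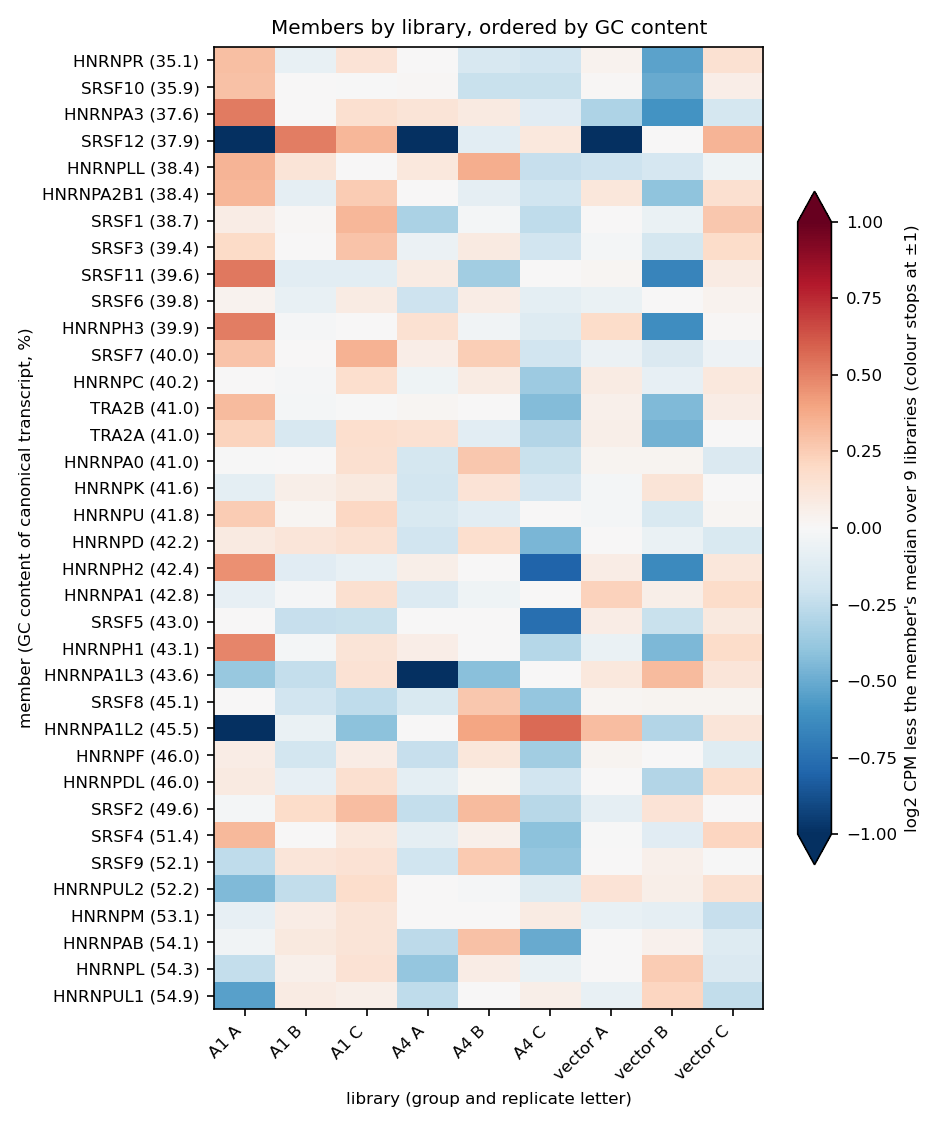
Each tested member (rows, ordered from low to high GC content, given in brackets as percent) in each library (columns), as log2 CPM less the gene's median over the 9 libraries; red is higher, blue is lower. Clone A1 replicate A is red and vector replicate B blue in the upper, GC-poor rows, and the clone A4 replicate C column is mostly blue throughout.

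Genes that act on or beside these proteins were read from 4 further lists. Of their 68 genes, 63 were tested and 0 passed an adjusted p of 0.05 in any comparison (edgeR). At an unadjusted p under 0.05, 2 were higher and 4 lower in the NCBP2 arm (9.52%, against 5.71% of all genes). These counts were 4 higher and 3 lower for clone A1 (11.1%, against 7.51%), 0 and 5 for clone A4 (7.94%, against 5.25%), and 0 and 2 when clone A4 was set against clone A1 (3.17%, against 6.63%). Of the 13 tested SR protein kinases, import receptors and methyltransferases, 1 was higher and 1 lower at that level in the NCBP2 arm. CLK1, the nuclear kinase that phosphorylates SR proteins, was at 129, 93.2 and 77.7 CPM for clone A1, 102, 96.7 and 74.3 for clone A4 and 63.4, 57.6 and 88.2 for vector. Its log2 fold change was 0.45 (SE 0.2001, adjusted p = 0.838 by edgeR), beside a median of 0.41 for its 40 neighbours on chromosome 2. TNPO3, the import receptor of SR proteins, was at 58.9, 72.4 and 85.8 CPM for clone A1, 71.8, 68.8 and 76.0 for clone A4 and 110.3, 91.7 and 99.7 for vector. Every NCBP2 library was below every vector library, with a log2 fold change of −0.48 (SE 0.145, adjusted p = 0.552 by edgeR) beside −0.36 for its neighbours on chromosome 7. LUC7L2, a U1 snRNP-associated SR-related protein further along chromosome 7, had −0.53 (SE 0.1802, adjusted p = 0.633 by edgeR) beside −0.40 for its neighbours. CLK1, TNPO3 and LUC7L2 were singled out after their values were seen.

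Among hnRNP relatives under other symbols, PTBP2, the neuronal polypyrimidine tract protein, was at 194, 137 and 111 CPM for clone A1, 130.4, 104 and 104 for clone A4 and 105, 62.2 and 107 for vector. Its log2 fold change was 0.50 in the NCBP2 arm (SE 0.232, adjusted p = 0.865 by edgeR) and 0.68 in clone A1 (SE 0.248, adjusted p = 0.501 by edgeR), while its neighbours had medians of 0.01 and 0.10. In clone A4, which overlapped vector, PTBP2 had 0.30 (SE 0.247, adjusted p = 0.9997 by edgeR). Of the other splicing regulators, the neuronal factor RBFOX3 was at 0.669, 4.19 and 3.48 CPM for clone A1, 3.80, 2.64 and 5.40 for clone A4 and 5.24, 13.6 and 10.7 for vector, and clone A1 lay below vector without overlap (log2 fold change −1.81, SE 0.566, adjusted p = 0.384 by edgeR). CELF2, a regulator of alternative splicing in muscle and brain, was singled out after its values were seen because it had the lowest p of the list genes in the NCBP2 arm. It was at 9.78, 6.99 and 9.95 CPM for clone A1, 10.97, 11.1 and 7.26 for clone A4 and 14.8, 13.02 and 20.2 for vector, and every NCBP2 library was below every vector library. Its log2 fold change was −0.77 in the NCBP2 arm (SE 0.228, adjusted p = 0.528 by edgeR), −0.84 in clone A1 and −0.71 in clone A4, beside medians of −0.18, −0.13 and −0.20 for its neighbours on chromosome 10. The epithelial factor ESRP1 had 163 reads in all and was at 1.41, 0.753 and 0.188 CPM for clone A1, 0, 0.0227 and 0.202 for clone A4 and 0.585, 0.215 and 0.952 for vector, so its fitted −2.92 in clone A4 against vector (SE 1.25, adjusted p = 0.861 by edgeR) rests on few reads. The deposited gene totals do not separate productive mRNAs from poison-exon isoforms, and 28 of the 36 tested members (77.8%) have at least 1 transcript annotated as subject to nonsense-mediated decay, against 46.3% of 13983 tested protein-coding genes.

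Strand mattered for a few members. Reads on the opposite strand were under 1.5% of stranded reads for 31 of 36 members. They were 74.6% for SRSF12, which had few reads, and 15.1% for SRSF9, which overlaps DYNLL1 and GATC on the other strand. For HNRNPU, which overlaps COX20, they were 10.3%, for HNRNPH3 2.82% and for HNRNPUL1 1.99%. When strand was ignored, SRSF9 kept 17.0% of its stranded count, HNRNPAB 47.9%, HNRNPUL1 83.6% and HNRNPK 86.3%, while SRSF12 rose to 393%. The tables hold reads that fall in more than 1 gene in a line of their own, outside the gene counts. All values above are on the gene's own strand.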

How the data were processed

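RNA was measured by sequencing after ribosomal RNA removal, although the labels give polyA RNA as the molecule. The authors deposited raw read counts per gene, not normalized, with a column regardless of strand and 1 for each strand. STAR 2.7.1a and GRCh38 are named per the submitters' processing notes, and the annotation release is not given in the sources used here. Column 3, the gene's strand in these data, was used. The 4 lines that name no gene, 44.5% to 63.6% of the reads of a library, were left out. Identifiers were matched to GENCODE 44 without their version (60295 of 60609), which may not be the release used for counting. Groups came from the titles.

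Members and gene lists were chosen with earlier results of these data known. Genes passing filterByExpr (21682) were scaled by TMM and tested with edgeR 4.0.16 in R 4.3.3 (quasi-likelihood, robust), with Benjamini-Hochberg adjustment over all of them and a threshold of 0.05. A 2-group fit gave the NCBP2 arm and a 3-group fit the contrasts of clones. CPM used TMM-scaled library sizes. Standard errors are the fold change over the root of the F statistic. The common biological coefficient of variation was 0.411. The script was tested on simulated data. Members named with full statistics are those past the threshold, up to 3 per direction at an unadjusted p under 0.05, and the 5 highest and 5 lowest per kilobase. Other members given with statistics were chosen after their values were seen, because their groups did not overlap in a comparison. From the lists, the gene with the largest change per direction at that p is named, in each comparison. Alternatives were DESeq2 1.42.0, voom with library weights (limma 3.58.1), other scalings, no filter, unstranded counts, a replicate block, counts summed per clone, 6-library fits and leaving out each library. No pair of libraries of a group agreed within sampling noise (lowest chi-square per degree of freedom 28.3), so libraries were not merged in the main fits. This check cannot show that the libraries of a clone are separate cultures, and the NCBP2 libraries still come from only 2 clones. The 95% intervals of fold changes were computed from the standard errors above with a t quantile, not given by edgeR itself, and reflect the spread between libraries. The limit of a count of 0 covers counting error only, because the reads carry no molecular identifiers.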

Additional observations from a re-analysis of the deposited data

Results flagged for a closer look

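Of the 36 tested members, 1 had a library that lay far from the other 5 NCBP2 libraries by Dixon's criterion at the 95% level. SRSF5 was at 200.2 CPM in clone A4 replicate C, while the other NCBP2 libraries lay between 287 and 338 CPM. The gap to the nearest library was 0.630 of the whole range. Chance alone marks about 1 in 20 such groups, so 1 of 36 is not more than that. The vector libraries had 288 to 360.4 CPM for SRSF5, all above this library. Clone A4 replicate C was also the lowest of the 9 libraries for 14 of 36 members.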

How the results depend on the processing

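Across 18 alternatives per comparison, 0 of 36 members passed the adjusted threshold in each of the 4 comparisons. This is not a sign of power, since all-gene counts moved widely. In the order NCBP2 arm, clone A1, clone A4 and clone A4 against clone A1, all-gene calls were 4, 14, 25 and 35. They became 103, 274, 185 and 246 with DESeq2, 205, 282, 214 and 145 with voom, and 20, 312, 163 and 231 with no filter. With the replicate block they were 13, 38, 53 and 51. Leaving out 1 library gave 1 to 8, 3 to 14, 7 to 41 and 10 to 56. Counts summed per clone gave 0 for the arm, and the 6 libraries alone gave 7 for clone A1. The cause was not tested. At an unadjusted p under 0.05, voom called 1 to 7 members, 7 of them in clone A4 against clone A1, and edgeR without clone A4 replicate B called 4 there.

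The replicate letters were not taken as pairing the libraries, since no label says so and not every same-letter pair correlated over 0.1. Deviations of same-letter libraries correlated between −0.10 and 0.18, with all 3 pairs of letter A at 0.13 to 0.15, and 4 of 9 libraries matched their own letter best. The replicate block left the count of members called at 0 in every comparison and gave HNRNPA3 a log2 fold change of 0.49 in the NCBP2 arm.

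HNRNPA3 was positive in these 18 alternatives, from 0.38 to 0.57 in the NCBP2 arm (adjusted p 0.130 to 0.99999), 0.40 to 0.69 in clone A1 (0.149 to 0.875) and 0.27 to 0.47 in clone A4 (0.228 to 1). Less the curve on GC content, added after the data were seen, it was 0.36, 0.38 and 0.34. In clone A4 against clone A1, with that curve among the alternatives, 28 to 33 of 36 members were under 0, with medians from −0.25 to −0.10. Signs against vector were less stable. In clone A4 26 members were under 0, and 16 without clone A4 replicate C, where the median was 0.00. In the NCBP2 arm 15 were under 0, and 23 without vector replicate B. In clone A1 10 were under 0, and 7 to 15 over the alternatives, with medians from 0.04 (voom) to 0.15. LUC7L2 passed the threshold with voom only (adjusted p = 0.0359 in the NCBP2 arm and 0.0414 in clone A4), and RBFOX3 in clone A1 only without a filter (adjusted p = 0.00127, edgeR).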
